A study of Bos taurus with 15 samples.

Results

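The mRNA of 45 bovine genes that build, sort and move endosomal vesicles was followed in embryos cultured with or without extracellular vesicles of the oviduct (oEVs). The genes were chosen by symbol: the subunits of the ESCRT complexes, the ATPase VPS4 with its cofactor, ALIX (PDCD6IP) with PDCD6 and syntenin (SDCBP), the tetraspanins CD9, CD63, CD81 and CD151, 8 endosomal RAB GTPases and both flotillins. Each symbol matched 1 NCBI gene identifier, all 45 genes were among the 34773 genes of the unfiltered count table, and 44 of them were among the 10832 genes of the table that the authors had filtered for low counts. The gene left out was RAB27B. Values below are CPM, the reads of a gene per 1000000 reads of its library after TMM scaling, a factor per library that evens out differences in RNA composition.

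Extracellular vesicles released from endosomes begin as buds of the endosomal membrane. ESCRT-0 binds ubiquitinated cargo, ESCRT-I and ESCRT-II deform the membrane, ESCRT-III polymerises at the neck of the bud and cuts it, and VPS4 takes the filaments apart again. The same ESCRT-III and VPS4 proteins close the nuclear envelope and separate daughter cells at the end of division, so these genes are active in nearly every cell. ALIX and syntenin recruit ESCRT-III to tetraspanin-rich membrane, RAB GTPases such as RAB27A and RAB35 bring the filled endosome to the cell surface, and RAB5 and RAB7 mark early and late endosomes through which vesicles taken up from outside pass. Bovine embryos both release vesicles and take up those of the oviduct. Only RNA was measured here, neither the proteins nor the vesicles.

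In vitro produced bovine embryos were cultured for 7 days, as the sample labels state, in 3 treatments. Control embryos (Co) received no oEVs, a further group received freshly isolated oEVs (FeEV), and the last received oEVs that had been frozen (FoEV). The oEVs came from cows after ovulation. The paper states that the fresh and frozen oEVs were split from material of the same oviducts. Each library was made from 1 ng of total RNA of a pool of 8 to 14 embryos. For each treatment 5 libraries were sequenced, chosen for RNA quality from 6 pools (68 embryos) of Co, 7 pools (74 embryos) of FeEV and 8 pools (81 embryos) of FoEV. The comparisons ask whether oEVs alter the embryonic transcriptome and whether freezing them matters. Nothing in the labels ties the pools of 1 treatment to separate cultures or oocyte batches, so the p-values measure the spread between pools, which may in part be technical. Embryonic transcripts and RNA carried in by oEVs cannot be told apart in these libraries, nor can fewer cells of a type and less RNA per cell.

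The libraries held 2136713 to 4058887 reads on genes, and every FoEV library (3392613 to 4058887) was deeper than every Co library (2571558 to 2977004). Ribosomal RNA took 15.5% to 28.2% of the reads, with the highest share in FoEV replicate 4. That library was also the highest or the lowest of the 15 in 13 of the 44 vesicle genes (29.5%), against 26.9% of all genes tested. Reads on snoRNA and snRNA genes made up 0.145% to 0.308% of the counts in Co, 0.163% to 0.280% in FeEV and 0.266% to 0.576% in FoEV. The embryos were checked by marker genes: of 9 trophectoderm markers 7 passed the filter, with summed CPM of 6443 to 8679 in Co, 7041 to 10482 in FeEV and 8351 to 11269 in FoEV. KRT8 and KRT18, with means of 4266 and 2684 CPM in Co, made up most of this sum. Of the markers of the inner cells, 6 of 7 for epiblast and 4 of 6 for hypoblast passed. The epiblast markers summed to 371 to 458 CPM in Co, 360 to 449 CPM in FeEV and 319 to 482 CPM in FoEV. For the hypoblast markers the sums were 542 to 860 CPM in Co, 590 to 735 CPM in FeEV and 548 to 745 CPM in FoEV. Of 8 oviduct epithelium markers OVGP1, FOXJ1, CAPS and PIGR were below the filter, PIGR with no read in any library, while PAX8, TPPP3, MUC16 and MSX1 were read in every library. The 8 summed to 26.7 to 53.6 CPM in Co, 25.1 to 38.5 CPM in FeEV and 28.7 to 52.1 CPM in FoEV.

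The 44 vesicle genes tested were read in every library and varied about as much as other genes of their level. Together they took 7853 to 17237 reads per library, or 0.314% to 0.430% of the counts, with summed CPM of 3510 to 3926 in Co, 3346 to 3734 in FeEV and 3524 to 3991 in FoEV. The mean CPM of a gene over the 15 libraries ran from 11.5 for MVB12B to 649 for CD9. CPM also grow with transcript length, so they are not compared between genes here. The lowest count of any of the 44 genes in any library was 16 reads, which sets how well small differences can be seen in the least abundant genes. Variation between pools of 1 treatment, given as the biological coefficient of variation of the edgeR fit, had a median of 0.127 over the vesicle genes (0.084 for PDCD6IP to 0.279 for MVB12B). Its median was 0.134 over the 8106 genes in the same range of CPM and 0.148 over all genes.

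**Figure D1:**
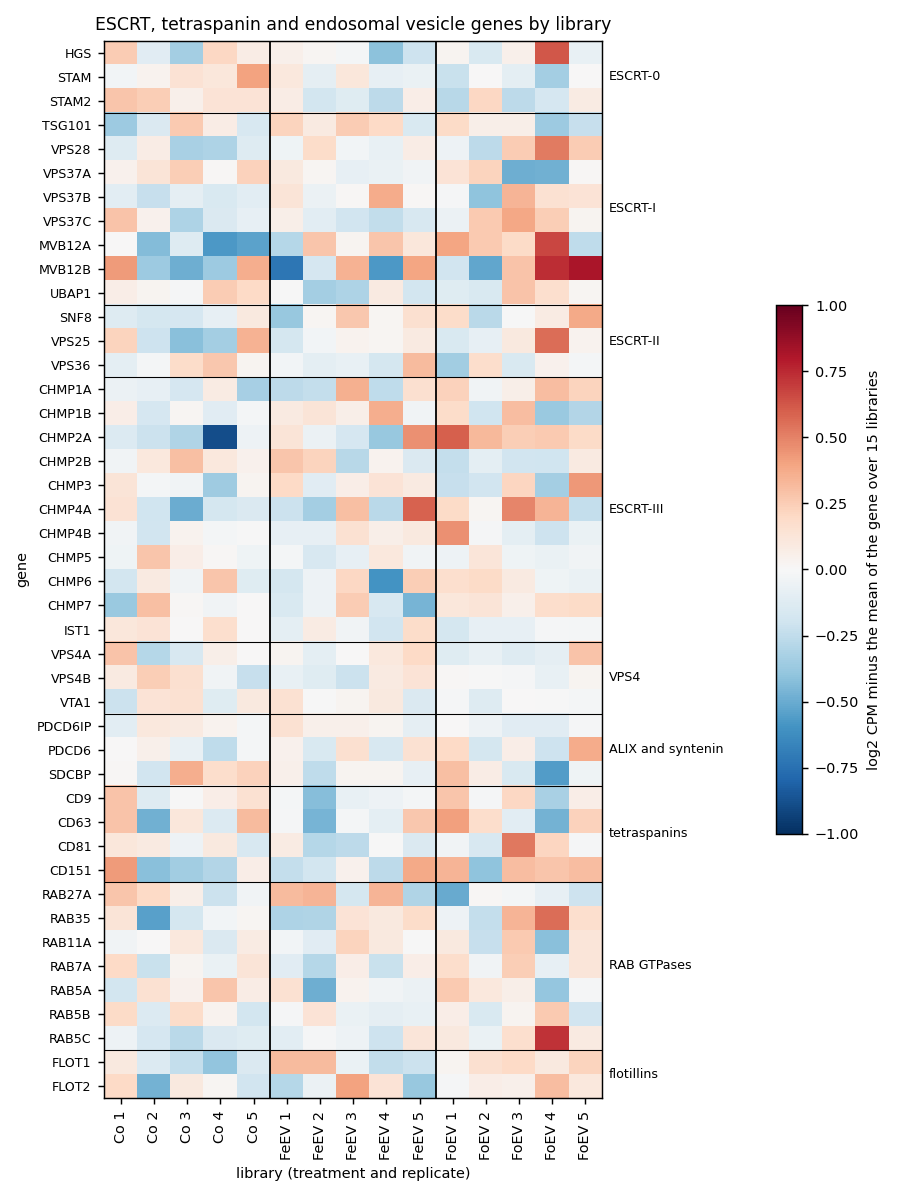
Level of the 44 vesicle genes in each library: rows are genes grouped by role, columns are the 15 libraries by treatment, and colour gives the log2 CPM minus the mean of that gene over all libraries. Most cells are pale, CHMP2A is blue in Co replicate 4 (18.9 CPM) and red in FoEV replicate 1 (52.8 CPM), and FoEV replicate 4 is dark for RAB5C and HGS.

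RAB27B, which with RAB27A docks endosomes at the plasma membrane, was nearly unread. It had 4, 0, 1, 3 and 0 reads in the Co libraries, 0, 0, 0, 6 and 0 in FeEV and 1, 0, 1, 0 and 1 in FoEV, 17 reads in all. Of the 15 libraries, 13 were at or under 3 reads, the number that a count of 0 still allows, so no fold is given. Its partner RAB27A was read in every library, at 15.7 to 28.2 CPM, with a log2 fold change of -0.22 in FoEV vs Co (95% interval -0.55 to 0.11) and -0.27 in FoEV vs FeEV (-0.60 to 0.056).

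Of the 44 genes tested, none passed an adjusted p under 0.05 in any of the 3 comparisons with the quasi-likelihood test of edgeR, with p-values adjusted over all 10832 genes. That threshold was passed by 0.00923% of all genes tested (1 gene) for FoEV vs Co, by 0 for FeEV vs Co and by 0 for FoEV vs FeEV. The smallest adjusted p of a vesicle gene was 0.0998 for CHMP2A in FoEV vs Co, 1.00 in FeEV vs Co and 0.560 for RAB5C in FoEV vs FeEV. At an unadjusted p under 0.05, 7 of the 44 genes (15.9%) stood in FoEV vs Co, where 15.1% of all genes tested did. The 5 higher in FoEV (CHMP2A, MVB12A, RAB5C, VPS28 and FLOT1) compare with a background of 8.18% and the 2 lower (STAM and STAM2) with 6.88%. In FeEV vs Co the count was 3 of 44 (MVB12A higher in FeEV, STAM2 and UBAP1 lower), with 4.15% of all genes (1.83% higher and 2.32% lower), and in FoEV vs FeEV it was 3 of 44 (RAB5C, VPS37C and CD81, all higher in FoEV), with 8.52% of all genes (4.83% higher and 3.69% lower). In each comparison the share of the vesicle genes was close to that of all genes.

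The number of genes counted also depended on single libraries. In FoEV vs Co the count at an unadjusted p under 0.05 was 4 without FoEV replicate 3, 11 without FoEV replicate 2 and 5 without FoEV replicate 4. The share of all genes in these fits was 14.68%, 18.1% and 11.9%, beside 15.1% with all libraries. In FeEV vs Co the count was 0 without FeEV replicate 2 and 1 without either Co replicate 4 or FeEV replicate 5. All genes stood at 3.70%, 2.90% and 3.68% in these fits, beside 4.15% with all libraries. In FoEV vs FeEV the count was 1 without either FeEV replicate 2 or FeEV replicate 4. All genes stood at 5.87% and 6.85% in these fits, beside 8.52% with all libraries.

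The fitted differences were small. The median log2 fold change over the 44 genes was 0.05 in FoEV vs Co, 0.011 in FeEV vs Co and 0.071 in FoEV vs FeEV, beside 0.015, 0.0039 and 0.0092 over all genes. Values above 0 were found for 25, 23 and 29 of the 44 genes in these comparisons, and for 52.3%, 51.0% and 51.8% of all genes. The data bound most of them closely: the 95% interval lay within a 1.5-fold change in either direction for 35 of 44 genes in FoEV vs Co (60.0% of all genes), for 40 in FeEV vs Co (66.7%) and for 39 in FoEV vs FeEV (65.5%). The interval reached a median of 0.27 on the log2 scale to either side of the estimate in FoEV vs Co, from 0.16 for PDCD6IP to 0.58 for MVB12B. FoEV vs Co and FeEV vs Co share the Co libraries and are not independent of each other.

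**Figure D2:**
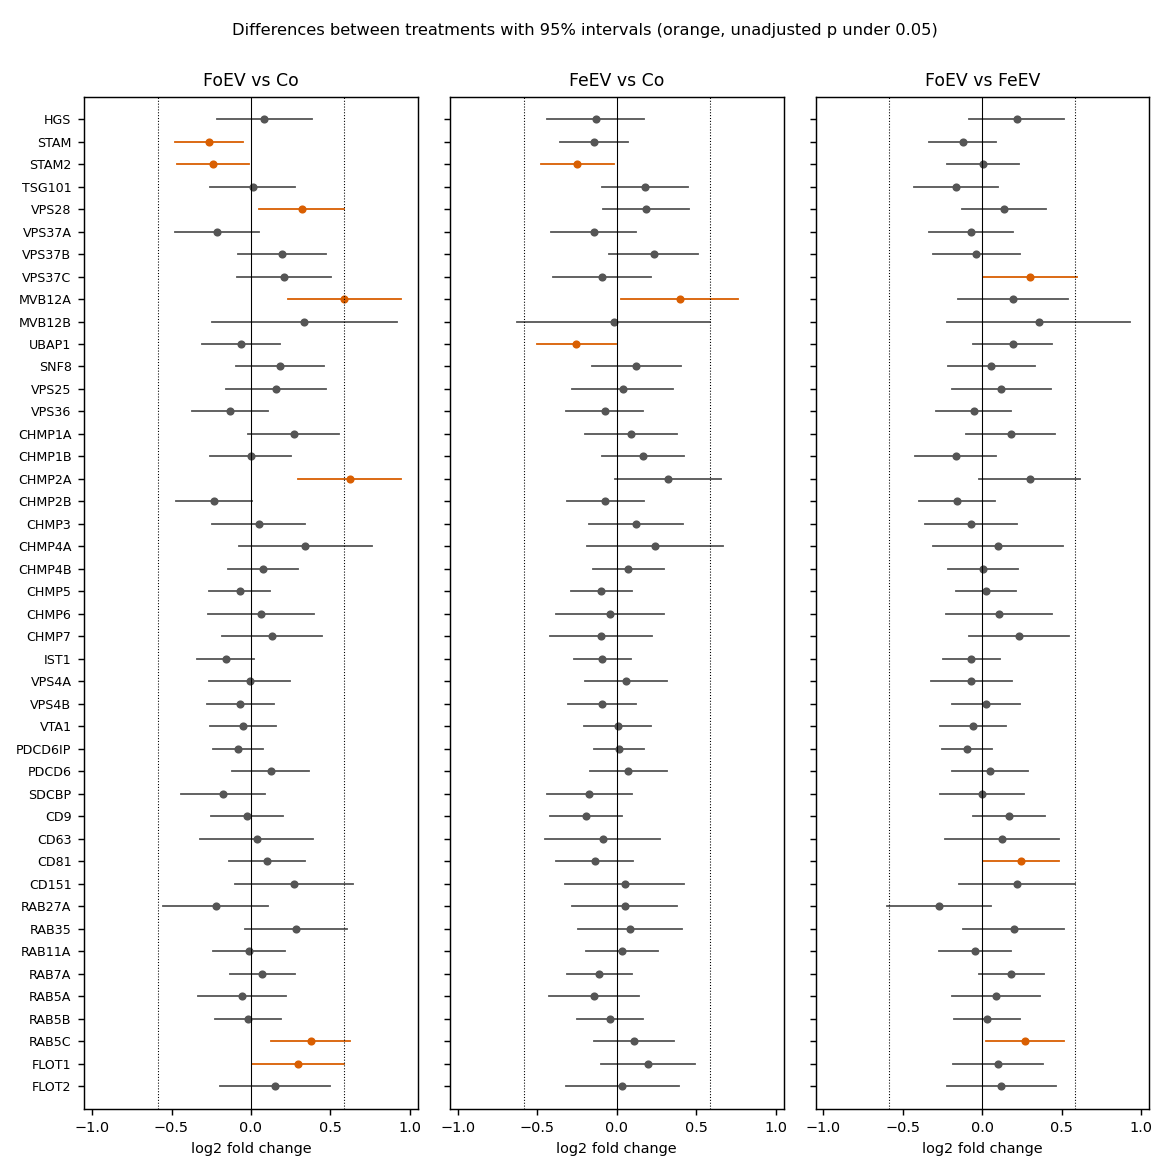
Log2 fold change of each vesicle gene (points) with its 95% interval (lines) in the 3 comparisons, ordered by role, with dotted lines at a 1.5-fold change and orange for an unadjusted p under 0.05. Orange genes number 7 in FoEV vs Co, 3 in FeEV vs Co and 3 in FoEV vs FeEV, and most intervals lie between the dotted lines.

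**Figure D3:**
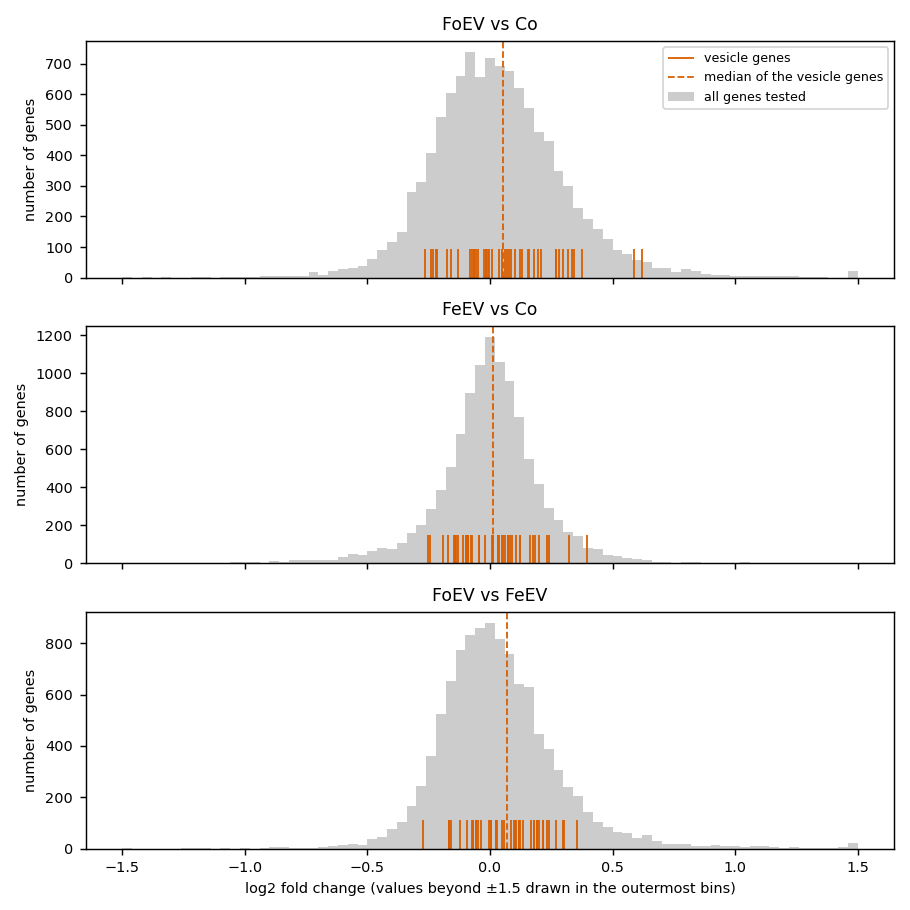
Number of genes (vertical axis) by log2 fold change (horizontal axis) for all 10832 genes tested (grey bars), with the 44 vesicle genes as orange strokes and their median as a dashed line. The strokes lie in the body of the grey distribution, and CHMP2A and MVB12A are the 2 at its upper side in FoEV vs Co.

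ESCRT-0 is made of HGS (HRS), which binds ubiquitin and endosomal lipid, and its partners STAM and STAM2, which carry cargo and deubiquitinating enzymes to it. The fitted values of both STAM genes were below Co with either kind of oEVs, and those of HGS were below Co with fresh oEVs alone. STAM (Gene ID 512734) was at 70.7, 73.9, 79.7, 77.9 and 95.2 CPM in Co, at 77.5, 67.6, 77.9, 67.9 and 68.7 CPM in FeEV and at 61.8, 72.1, 67.2, 56.8 and 72.2 CPM in FoEV. Of the FoEV libraries 3 were below every Co library, the others overlapped with Co, and all 5 were below the Co mean. The difference of FoEV from Co was small (log2 fold change -0.26, SE 0.10, 95% interval -0.48 to -0.052, unadjusted p = 0.017, adjusted p = 0.229). STAM2 (Gene ID 538505) was at 82.8, 81.0, 70.9, 75.1 and 75.1 CPM in Co, at 71.8, 60.2, 62.9, 56.9 and 71.5 CPM in FeEV and at 56.5, 78.7, 57.0, 60.8 and 72.5 CPM in FoEV. With either kind of oEVs 3 of 5 libraries were below every Co library. FeEV replicates 1 and 5 and FoEV replicates 2 and 5 were within the Co range. The difference of STAM2 from Co was computed for FoEV (log2 fold change -0.24, SE 0.11, 95% interval -0.47 to -0.016, unadjusted p = 0.037, adjusted p = 0.296) and for FeEV (log2 fold change -0.25, SE 0.11, 95% interval -0.47 to -0.019, unadjusted p = 0.035, adjusted p = 1.00). The summed CPM of the ESCRT-0 genes were 191 to 224 in Co, 164 to 202 in FeEV and 171 to 197 in FoEV. HGS had 38.7 to 78.8 CPM, with its highest value in FoEV replicate 4, and overlapped in every comparison (log2 fold change 0.084 in FoEV vs Co and -0.13 in FeEV vs Co).

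ESCRT-I is a rod built of TSG101, which binds ubiquitin and the viral and cellular motifs that recruit ESCRT, VPS28, a VPS37 protein and either an MVB12 protein or UBAP1. Its alternative subunits did not keep to 1 direction. MVB12A (Gene ID 507199), which helps to bind ubiquitinated cargo, was at 21.5, 15.9, 19.7, 14.4 and 14.8 CPM in Co, at 17.6, 26.0, 21.9, 26.0 and 23.2 CPM in FeEV and at 28.2, 25.7, 24.5, 34.1 and 18.0 CPM in FoEV. In each oEV treatment 4 of 5 libraries were above every Co library and all 5 above the Co mean. Its mean was 17.3 ± 3.16 CPM (SD, n = 5) in Co and 26.1 ± 5.84 CPM (SD, n = 5) in FoEV. The difference was the next largest of the group after CHMP2A in FoEV vs Co (log2 fold change 0.59, SE 0.17, 95% interval 0.23 to 0.95, unadjusted p = 0.0025, adjusted p = 0.141) and the largest in FeEV vs Co (log2 fold change 0.40, SE 0.18, 95% interval 0.03 to 0.76, unadjusted p = 0.035, adjusted p = 1.00). With the likelihood ratio test of edgeR the adjusted p of MVB12A in FoEV vs Co was 0.0361, and over 10 alternative settings it ranged from 0.0361 to 0.227.

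UBAP1 (Gene ID 517788), an alternative to the MVB12 subunits that directs ESCRT-I to ubiquitinated receptors, had values of the other sign with fresh oEVs. It was at 42.3, 41.2, 40.0, 48.2 and 46.4 CPM in Co, at 40.2, 31.9, 32.5, 42.8 and 35.5 CPM in FeEV and at 37.0, 36.3, 49.0, 45.4 and 40.9 CPM in FoEV. Of the FeEV libraries 3 were below every Co library, and all 5 were below the Co mean (log2 fold change -0.25, SE 0.12, 95% interval -0.50 to -0.0025, unadjusted p = 0.048, adjusted p = 1.00). MVB12B, the least read of the group, was at 6.56 to 19.1 CPM and varied most between pools, so its log2 fold change of 0.34 in FoEV vs Co had an interval of -0.25 to 0.92. VPS28 (Gene ID 618785), the subunit that links ESCRT-I to ESCRT-II, was at 48.1, 55.3, 41.9, 42.5 and 48.0 CPM in Co, at 51.0, 59.8, 51.6, 50.1 and 55.3 CPM in FeEV and at 50.7, 43.9, 62.8, 75.5 and 62.7 CPM in FoEV. FoEV replicates 3, 4 and 5 were above every Co library and FoEV replicates 1 and 2 were within the Co range. In FoEV vs Co its values were log2 fold change 0.32, SE 0.13, 95% interval 0.052 to 0.59, unadjusted p = 0.022, adjusted p = 0.24, and the log2 fold change was 0.22 without FoEV replicate 4.

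Among the VPS37 genes, VPS37B (Gene ID 535566) was the one whose FeEV and Co libraries did not overlap. It was at 29.2, 26.7, 29.3, 28.1 and 29.1 CPM in Co, at 34.3, 30.1, 31.6, 40.5 and 31.6 CPM in FeEV and at 31.0, 23.7, 39.7, 34.7 and 34.3 CPM in FoEV. Every FeEV library lay above every Co library, by a narrow margin (29.3 against 30.1 CPM), and the fitted difference was a log2 fold change of 0.23, SE 0.14, 95% interval -0.048 to 0.51, unadjusted p = 0.099, adjusted p = 1.00. In FeEV vs Co 0.535% of all genes tested did not overlap with FeEV higher and 0.415% with FeEV lower, and VPS37B was 1 of the 44 vesicle genes to do so. In FoEV vs FeEV 0 of the 44 did, beside 0.757% of all genes with FoEV higher and 0.748% with FoEV lower. VPS37C (Gene ID 613817) was at 24.4, 20.6, 16.1, 18.1 and 18.9 CPM in Co, at 20.9, 18.6, 17.5, 16.9 and 17.9 CPM in FeEV and at 19.2, 24.0, 26.2, 23.7 and 20.4 CPM in FoEV. FoEV exceeded FeEV in 3 of 5 libraries against every FeEV library (log2 fold change 0.30, SE 0.14, 95% interval 0.0051 to 0.60, unadjusted p = 0.047, adjusted p = 0.578), while the Co libraries spanned most of both ranges. VPS37A was at 38.0 to 63.2 CPM, with FoEV replicates 3 and 4 lowest, and TSG101 at 41.9 to 64.8 CPM in values that overlapped in every comparison. The 8 ESCRT-I genes summed to 271 to 283 CPM in Co, 278 to 296 CPM in FeEV and 280 to 312 CPM in FoEV.

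**Figure D4:**
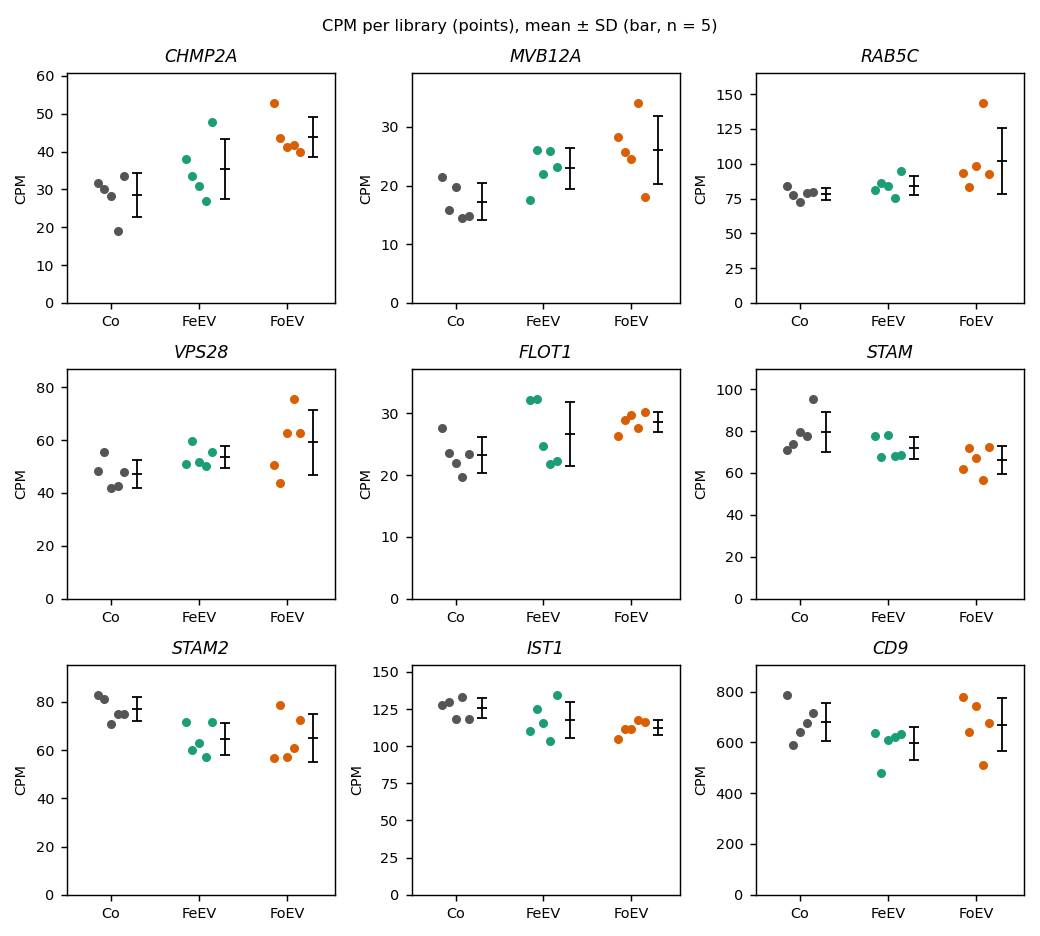
CPM in each library (points) with the mean and SD of the 5 libraries of a treatment (bars) for 9 vesicle genes; the vertical axes start at 0 and differ between panels. CHMP2A in FoEV (39.8 to 52.8 CPM) lies above Co (18.9 to 33.7 CPM), and IST1 in FoEV just below Co, while the other panels overlap.

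ESCRT-II, made of SNF8, VPS25 and VPS36, bridges ESCRT-I to ESCRT-III. None of its 3 genes was under an unadjusted p of 0.05 in any comparison, and their summed CPM were 146 to 174 in Co, 142 to 183 in FeEV and 142 to 182 in FoEV. Their log2 fold changes ran from -0.13 to 0.18 in FoEV vs Co and from -0.075 to 0.12 in FeEV vs Co. SNF8 overlaps UBE2Z in a later bovine annotation, VPS4A overlaps COG8 and PDF, RAB27A the lncRNA gene LOC788201 (297 reads in all libraries against 1053 of RAB27A), FLOT2 overlaps DHRS13 and CHMP1B overlaps GNAL, so reads may be shared where the counting did not use strand.

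ESCRT-III, the filament that cuts the bud, was measured through 11 genes. CHMP2A is one of its capping subunits, which together with CHMP3 recruits VPS4, and it had the largest difference of all 44 genes. CHMP2A (Gene ID 523847) was at 31.7, 30.0, 28.4, 18.9 and 33.7 CPM in Co, at 38.1, 33.4, 31.0, 26.9 and 47.8 CPM in FeEV and at 52.8, 43.6, 41.3, 41.7 and 39.8 CPM in FoEV. Every FoEV library was above every Co library, and the FeEV libraries overlapped with both. The means were 28.5 ± 5.75, 35.4 ± 8.01 and 43.9 ± 5.18 CPM (SD, n = 5 each) in Co, FeEV and FoEV. FoEV was 1.54-fold of Co (log2 fold change 0.62, SE 0.16, 95% interval 0.30 to 0.95, unadjusted p = 0.00065, adjusted p = 0.0998 with the quasi-likelihood test). In the same comparison 2 of the 44 genes did not overlap between treatments, CHMP2A and IST1, beside 1.26% of all genes tested with FoEV higher and 1.35% with FoEV lower.

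The paper, which used a likelihood ratio test, lists CHMP2A and MVB12A among the genes upregulated with frozen oEVs. Whether CHMP2A passed depended on the test. Its adjusted p in FoEV vs Co was 0.0243 with the Wald test of DESeq2, which called 2.40% of the 6002 genes it gave an adjusted p and 1 of 36 vesicle genes, and 0.0118 with the likelihood ratio test of edgeR, which called 2.87% of all genes and 2 of the 44. In FeEV vs Co these tests called 0 of the 44 genes (0.00923% and 0.0554% of all genes), and in FoEV vs FeEV also 0 (0.0277% and 0.286%). Over 10 alternative settings the adjusted p ran from 0.0104 to 0.189, and it was 0.0774 to 0.291 when 1 library was left out at a time. The log2 fold change was 0.51 to 0.68 in the latter, with the lowest value without Co replicate 4, the library with the fewest CHMP2A reads. FeEV lay between the other treatments, at log2 fold change 0.32, SE 0.16, 95% interval -0.0099 to 0.66 against Co (unadjusted p = 0.057, adjusted p = 1.00) and log2 fold change 0.30, SE 0.15, 95% interval -0.019 to 0.61 for FoEV against it (unadjusted p = 0.064, adjusted p = 0.592). Without FeEV replicate 5, the FeEV library with the highest CHMP2A level, the value against Co was 0.19. The depth of the libraries and the trophectoderm markers also differed between FoEV and Co: KRT18, a keratin of the trophectoderm, had a log2 fold change of 0.55 (adjusted p = 0.0818 with the quasi-likelihood test), and 4 of the 7 markers tested were higher at an unadjusted p under 0.05, beside 8.18% of all genes. The part of the trophectoderm in the CHMP2A difference was not tested. With every library thinned to 2136713 reads the log2 fold change of CHMP2A was 0.60 (adjusted p = 0.151).

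CHMP2B, which can stand in for CHMP2A, had values of the other sign in FoEV vs Co (log2 fold change -0.23, SE 0.12, 95% interval -0.47 to 0.0094, unadjusted p = 0.059, adjusted p = 0.351). The reads of CHMP2A per read of CHMP2B, a ratio within each library that needs no scaling, were 0.60, 0.52, 0.43, 0.33 and 0.61 in Co, 0.58, 0.53, 0.70, 0.49 and 0.98 in FeEV and 1.16, 0.87, 0.88, 0.89 and 0.70 in FoEV. The FoEV ratios were all above the Co ratios. Of 13 ratios between related genes, chosen after the values were seen and given as a description with no test, this was the one that did not overlap in FoEV vs Co. VPS37A per VPS37B did not overlap in FeEV vs Co, at 1.26 to 1.80 in FeEV and 1.89 to 2.19 in Co, and in FoEV it was 0.96 to 2.63. No ratio kept FoEV and FeEV apart. CHMP2A in FoEV vs Co and VPS37B in FeEV vs Co already did not overlap by themselves, so their ratios are not separate evidence. How many ratios of other gene pairs do not overlap was not counted.

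**Figure D5:**
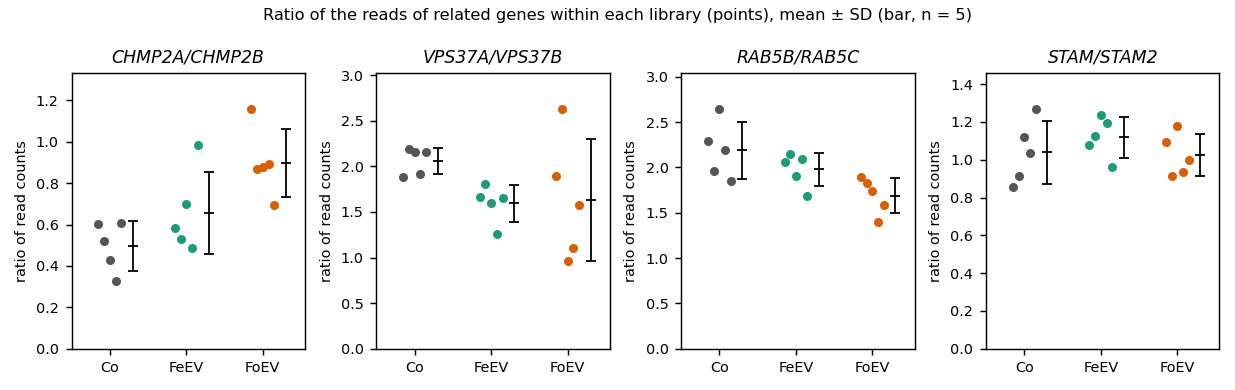
Ratio of the read counts of 4 pairs of related genes in each library (points) with the mean and SD of the 5 libraries of a treatment (bars), vertical axes from 0. CHMP2A per CHMP2B is 0.70 to 1.16 in FoEV and 0.33 to 0.61 in Co; VPS37A per VPS37B is lower in FeEV than in Co; the other pairs overlap.

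IST1 (Gene ID 508900), which regulates VPS4 and shapes recycling tubules, was at 128, 129.9, 118, 133 and 119 CPM in Co, at 110.3, 125, 115, 103 and 134 CPM in FeEV and at 105, 112, 112, 118 and 116 CPM in FoEV. All FoEV libraries were below all Co libraries, with 117.5 against 118.4 CPM at the closest, and FeEV spanned both ranges. The difference was 0.89-fold (log2 fold change -0.16, SE 0.09, 95% interval -0.34 to 0.018, unadjusted p = 0.076, adjusted p = 0.386). Of the remaining ESCRT-III genes, CHMP4B, the main filament subunit, was the most read at 127 to 201 CPM with FoEV replicate 1 highest, and CHMP5 was at 65.7 to 89.1 CPM. CHMP1A, CHMP1B, CHMP3, CHMP4A, CHMP6 and CHMP7 overlapped in every comparison, with log2 fold changes of -0.0024 to 0.34 in FoEV vs Co. The sum of the 11 genes was 606 to 622 CPM in Co, 610 to 658 CPM in FeEV and 582 to 679 CPM in FoEV.

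VPS4A and VPS4B, the ATPases that recycle ESCRT-III, and their activator VTA1 were even across treatments, at 31.0 to 46.1, 53.3 to 74.2 and 45.6 to 58.7 CPM. Their log2 fold changes lay between -0.066 and -0.0089 in FoEV vs Co, and the sum was 148 to 163 CPM in Co, 145 to 164 CPM in FeEV and 147 to 162 CPM in FoEV. PDCD6IP (Gene ID 533406), ALIX, which links syntenin and tetraspanins to ESCRT-III, was the least variable of the 44 genes. It was at 247, 285, 282, 272 and 262 CPM in Co, at 294, 274, 274, 269.6 and 249 CPM in FeEV and at 265, 256, 245, 244 and 262 CPM in FoEV. Its 95% intervals of the log2 fold change were -0.24 to 0.075 in FoEV vs Co and -0.14 to 0.17 in FeEV vs Co. PDCD6, the calcium sensor that binds ALIX, was at 55.0 to 84.5 CPM. SDCBP, syntenin, which couples syndecans to ALIX, was at 107 to 203 CPM, with its lowest value in FoEV replicate 4, and its log2 fold change was -0.18 in FoEV vs Co and -0.17 in FeEV vs Co.

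Tetraspanins organise membrane domains, and CD9, CD63 and CD81 are the usual marker proteins of extracellular vesicles. In all 4 tetraspanin genes the libraries of the treatments overlapped. CD9 (Gene ID 280746), which acts in cell fusion and adhesion, took 17.6% of the reads of the vesicle genes. It was at 786, 588, 641, 675 and 716 CPM in Co, at 637, 479.8, 611, 619.8 and 635 CPM in FeEV and at 779, 639.7, 744, 513 and 675 CPM in FoEV. All 5 FeEV libraries were below the Co mean, and FeEV replicate 2 was the lowest of the 15. FeEV vs Co gave log2 fold change -0.19, SE 0.11, 95% interval -0.42 to 0.033, unadjusted p = 0.091, adjusted p = 1.00, and FoEV vs Co gave log2 fold change -0.024, SE 0.11, 95% interval -0.25 to 0.20. CD81 (Gene ID 511435) was at 138, 136, 123, 137 and 114 CPM in Co, at 135, 105, 107, 127 and 116 CPM in FeEV and at 124, 114, 184, 148 and 127 CPM in FoEV. FoEV replicates 3 and 4 were above every FeEV library (log2 fold change 0.24, SE 0.12, 95% interval 0.0023 to 0.48, unadjusted p = 0.048, adjusted p = 0.578), and without FoEV replicate 3 the log2 fold change was 0.12. CD63, which follows the late endosome, was at 66.1 to 123 CPM, and CD151, a partner of laminin-binding integrins, at 66.8 to 119.6 CPM. The 4 genes had log2 fold changes of 0.12 to 0.24 in FoEV vs FeEV, and each interval but that of CD81 spanned 0.

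Among the RAB GTPases, RAB5C had the smallest p in FoEV vs Co and in FoEV vs FeEV. RAB5A, RAB5B and RAB5C serve early endosomes, where vesicles and receptors taken up from outside arrive. RAB5C (Gene ID 613749) was at 83.9, 77.6, 72.2, 78.7 and 80.0 CPM in Co, at 81.1, 86.2, 84.1, 75.6 and 94.7 CPM in FeEV and at 93.1, 83.0, 98.1, 144 and 92.7 CPM in FoEV. Of the FoEV libraries 4 were above every Co library, and FoEV replicate 4 stood far above the rest. The means were 78.5 ± 4.22 CPM in Co and 102 ± 23.8 CPM in FoEV (SD, n = 5 each). In FoEV vs Co its values were log2 fold change 0.38, SE 0.12, 95% interval 0.13 to 0.62, unadjusted p = 0.0049, adjusted p = 0.165, and in FoEV vs FeEV log2 fold change 0.27, SE 0.12, 95% interval 0.022 to 0.52, unadjusted p = 0.034, adjusted p = 0.56. Without FoEV replicate 4 the log2 fold changes were 0.23 and 0.12.

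RAB5B (Gene ID 539150) was at 192, 152, 191, 173 and 148 CPM in Co, at 167, 185, 161, 158 and 160.1 CPM in FeEV and at 176, 151, 171, 201 and 147 CPM in FoEV, with no separation of treatments (log2 fold change -0.017, SE 0.10, 95% interval -0.22 to 0.19 in FoEV vs Co), and RAB5A was at 28.2 to 48.2 CPM. RAB5B per RAB5C, as reads within a library, was 1.85 to 2.64 in Co, 1.69 to 2.15 in FeEV and 1.40 to 1.89 in FoEV. The Co and FoEV ratios met at 1.85 and 1.89. RAB7A (Gene ID 509970), which marks late endosomes and directs them to lysosomes, was at 237, 177, 211, 197 and 226 CPM in Co, at 191, 169, 216, 177 and 216 CPM in FeEV and at 234, 202, 245, 195 and 224 CPM in FoEV. Its FoEV libraries were all above the FeEV mean (log2 fold change 0.18, SE 0.10, 95% interval -0.024 to 0.39, unadjusted p = 0.081, adjusted p = 0.608), and both overlapped with Co. RAB11A (Gene ID 534708), of recycling endosomes, was at 208, 214, 229, 193 and 225 CPM in Co, at 209, 197, 248, 228 and 212 CPM in FeEV and at 229, 182, 256, 159.6 and 231 CPM in FoEV, with both the highest and the lowest library in FoEV. Its interval in FoEV vs Co was -0.24 to 0.21. RAB35, which docks endosomes for release, had 28.3 to 60.8 CPM, the highest again in FoEV replicate 4, and a log2 fold change of 0.28 (-0.040 to 0.60) in FoEV vs Co.

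The flotillins are scaffold proteins of membrane domains and common vesicle markers. FLOT1 (Gene ID 532573) was at 27.7, 23.6, 21.9, 19.7 and 23.4 CPM in Co, at 32.2, 32.3, 24.7, 21.9 and 22.3 CPM in FeEV and at 26.4, 29.0, 29.8, 27.7 and 30.3 CPM in FoEV. In FoEV 3 libraries were above every Co library and all 5 above the Co mean, and FeEV held both high and low libraries. The difference was small (log2 fold change 0.30, SE 0.14, 95% interval 0.0083 to 0.59, unadjusted p = 0.044, adjusted p = 0.316). FLOT2 was at 12.8 to 23.5 CPM and had a log2 fold change of 0.15 in FoEV vs Co. By role, the median log2 fold change in FoEV vs Co was -0.24 for ESCRT-0, 0.20 for ESCRT-I, 0.16 for ESCRT-II, 0.061 for ESCRT-III, -0.050 for VPS4 and its cofactor, -0.082 for ALIX, PDCD6 and syntenin, 0.069 for the tetraspanins, -0.015 for the RAB GTPases and 0.23 for both flotillins.

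The genes around this core were counted through 5 lists of 169 genes in all, of which 150 were tested. No gene of the lists passed an adjusted p under 0.05 with the quasi-likelihood test of edgeR. The paper used a likelihood ratio test and lists VAMP8, AP2M1 and AP2S1 as upregulated with frozen oEVs. It lists EPS15, ADAM10 and CAV1 as downregulated. At an unadjusted p under 0.05, 30 of the 150 (20.0%) stood in FoEV vs Co, 17 higher and 13 lower, beside 15.1% of all genes. The count was 4 (1 higher and 3 lower) in FeEV vs Co and 13 (7 higher and 6 lower) in FoEV vs FeEV, beside 4.15% and 8.52% of all genes. With 1 library left out these counts ran from 22 to 33, from 0 (without Co replicate 5) to 6 and from 7 (without FoEV replicate 4) to 17. In the same fits the share of all genes ran from 11.5% to 18.1%, from 2.90% to 5.63% and from 5.87% to 11.4%. In FoEV vs Co, 3 of the 25 ESCRT partners, ubiquitin ligases and deubiquitinases tested were higher and 3 lower. Together these were 24.0% of the list, beside 15.1% of all genes (8.18% higher and 6.88% lower). The count was 2 without FoEV replicate 1, beside 13.0% of all genes in that fit. EPS15, which holds ubiquitinated cargo beside ESCRT-0, was at 134 ± 11.6 CPM in FoEV and 168 ± 10.5 CPM in Co (SD, n = 5 each; log2 fold change -0.33, adjusted p = 0.100), and ITCH, a ubiquitin ligase, had -0.34 (adjusted p = 0.140). Of 19 other tetraspanins and their partners 2 were higher and 1 lower (15.8%, close to the share of all genes). Among them were ITGA3, the integrin chain that binds CD151, at 0.39 (adjusted p = 0.177), and ADAM10, a protease held by tetraspanins, at -0.34 (adjusted p = 0.118). The count of this list was 2 without Co replicate 4 and 5 without FoEV replicate 3, beside 11.5% and 14.68% of all genes.

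Of 40 genes of vesicle secretion, docking and fusion 7 were higher and 3 lower in FoEV vs Co (25.0%, beside 15.1% of all genes). The count was 6 without FoEV replicate 4 and 13 without Co replicate 1, beside 11.9% and 17.0% of all genes. VAMP8, a fusion protein of late endosomes, was at 18.4 ± 3.35 CPM in FoEV and 11.1 ± 2.65 CPM in Co (SD, n = 5 each; log2 fold change 0.73, adjusted p = 0.0943), and EXOC5 of the exocyst had -0.34 (adjusted p = 0.145). Of 41 genes of endosome identity and recycling 2 were higher and 4 lower (14.6%, close to the share of all genes). The list was led by RAB4A, of fast recycling, at -0.38 (adjusted p = 0.170) and RAB21, of early endosomes, at -0.35 (adjusted p = 0.189). Without Co replicate 3 its count was 3, beside 13.0% of all genes. Of 25 genes of endocytic uptake 3 were higher and 2 lower (20.0%), led by the clathrin adaptor subunits AP2S1 at 0.37 (adjusted p = 0.140) and AP2M1 at 0.28 (adjusted p = 0.177). Without FoEV replicate 5 the count of this list was 8, beside 15.4% of all genes. All values in the lists come from the quasi-likelihood test of edgeR. Each list held genes of both signs.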

How the data were processed

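Low-input total RNA-seq reads of 15 libraries were processed by the authors. The submitters' processing notes list Trim Galore 0.4.3.1, HISAT2 2.1.0 and featureCounts 1.6.3 with the assembly ARS-UCD1.2, while the methods name a Galaxy installation and QuasR Qcount; which of these made the counts stayed unsettled, as did the length of culture, for which the methods give a day more than the labels. The deposited tables hold read counts per NCBI gene without normalization, for 34773 genes and for the 10832 genes the authors kept, with the same counts in both. Whether counting used strand was not given in the sources used here. All columns were assigned to samples by the library number in the sample description, which can differ from the replicate number in the title.

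Counts of the filtered table were scaled by TMM and fitted with edgeR 4.0.16 in R 4.3.3 (estimateDisp, glmQLFit with robust=TRUE, glmQLFTest), with treatment as the only factor and 1 fit over all libraries for the 3 comparisons. P-values were adjusted over 10832 genes by the Benjamini-Hochberg procedure. SEs were derived from the F statistic, and 95% intervals from the t quantile at the total degrees of freedom of the fit. CPM used the filtered totals. Alternatives were DESeq2 1.42.0 (Wald test, or its size factors in edgeR), robust dispersion with a likelihood ratio test as in the methods, no filter, at least 10 CPM in 5 libraries, thinned counts, removal of rRNA genes, only the treatments compared, blocks by replicate or library number, and leaving out each library. The fits with a block by library number used only the treatments compared and only libraries whose number occurs in both. The scripts were tested on simulated data. Tables and figures were made with Python 3.11.15, pandas 2.3.3, numpy 2.4.6, scipy 1.17.1 and matplotlib 3.10.9.

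The genes, lists and tests were chosen with earlier results of these data known. Values per library are given for each gene with an unadjusted p under 0.05 or with treatments that do not overlap, for at least the 5 genes with the smallest p in each comparison and for the 5 with the highest mean CPM; in the lists, up to 3 genes with the smallest p per comparison could be named. Gene names and overlaps came from RefSeq annotation of the later assembly ARS-UCD2.0, joined by gene identifier, with an entry for 10709 of the 10832 genes, so no coordinates are given.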

Additional observations from a re-analysis of the deposited data

Results flagged for a closer look

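In 51 groups of 5 libraries (17 vesicle genes described by library, in 3 treatments), 2 values stood apart by the ratio of their gap to the range of the group. Chance flags about 5% of such groups. CD9 in FeEV replicate 2 was the lowest of its treatment at 479.8 CPM, and without this library the log2 fold change of CD9 in FeEV vs Co was -0.12 in place of -0.19. RAB5C in FoEV replicate 4 was the highest of its treatment at 143.6 CPM, and without it the log2 fold change in FoEV vs Co was 0.23 in place of 0.38. FoEV replicate 4 also had the highest share of rRNA reads, 28.2%. The next highest share was 28.0% in Co replicate 5, where RAB5C was at 80.0 CPM. The part of the rRNA share in the RAB5C value was not tested.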

How the results depend on the processing

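The number of vesicle genes with an adjusted p under 0.05 in FoEV vs Co was 0 in edgeR's quasi-likelihood test (0.00923% of all genes). It was 1 with DESeq2's Wald test (2.40%), 1 without the filter (0.679%) and 2 with the likelihood ratio test (2.87%). It was 0 in every fit that left out a library (0 to 0.535%), and 0 in the other 2 comparisons under every alternative. CHMP2A was the gene called, with MVB12A in the likelihood ratio test, and the adjusted p of CHMP2A was 0.0104 without the filter. The number with an unadjusted p under 0.05 in FeEV vs Co was 3 and became 1 with thinned counts (3.91% of all genes). In FoEV vs FeEV it was 3 and became 1 with DESeq2 (8.33%), 1 with thinned counts (8.31%) and 0 with only the treatments compared (8.33%). When 1 library was left out, these counts ranged from 4 to 11 in FoEV vs Co. They ranged from 0 to 3 in FeEV vs Co and from 1 to 4 in FoEV vs FeEV. The share of all genes in these fits ranged from 11.5% to 18.1%, from 2.90% to 5.63% and from 5.87% to 11.4%. The median log2 fold changes of the vesicle genes ranged from 0.016 to 0.079, from -0.021 to 0.014 and from 0.026 to 0.099. The causes were not tested.

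The replicate numbers of the titles gave the block of a further fit. Correlations of same-numbered libraries, as deviations from the treatment means, ran from -0.29 to 0.35 (mean 0.034) in FoEV vs Co. They ran from -0.21 to 0.42 (mean 0.14) in FeEV vs Co and from 0.013 to 0.44 (mean 0.19) in FoEV vs FeEV. The means for libraries of different number were -0.0084, -0.034 and -0.046. Of 15 libraries, 5 correlated best with their own number. The labels do not say what the numbers mark, and the main fit did not pair the pools by them. With this replicate block 1 vesicle gene had an adjusted p under 0.05 in FoEV vs Co (CHMP2A, 0.0375), where 0.526% of all genes did, and 5 had an unadjusted p under 0.05 in FeEV vs Co, beside 5.35% of all genes in that fit. With a block by the library number of the descriptions the latter count was 0, beside 5.65% of all genes. The median log2 fold change in FoEV vs FeEV was 0.024 in place of 0.071. The fits with this block kept only libraries whose number occurs in both treatments. That left 3 pairs in FoEV vs Co, 3 in FeEV vs Co and 4 in FoEV vs FeEV. The block and the libraries left out therefore cannot be told apart as sources of these shifts.

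The median log2 fold change over the vesicle genes in FeEV vs Co, 0.011, was -0.0066 with thinned counts and also below 0 with the likelihood ratio test. For single genes, signs turned for log2 fold changes near 0 in genes described for their level. CD9 in FoEV vs Co was 0.0016 with the likelihood ratio test and -0.084 to 0.058 with a library left out. RAB11A in FoEV vs Co was 0.0013 with that test and -0.10 to 0.070 with a library left out; in FoEV vs FeEV it was 0.016 with the block by library number and -0.13 to 0.038, and in FeEV vs Co -0.018 to 0.068. PDCD6IP in FeEV vs Co was -0.0028 with that block and -0.016 to 0.045 with a library left out. RAB5B in FoEV vs Co was 0.031 with that block and -0.085 to 0.030, in FoEV vs FeEV -0.0046 with thinned counts, -0.043 with that block and -0.041 to 0.074, and in FeEV vs Co -0.092 to 0.00086. The fits with the block by library number also held fewer libraries, those whose number occurs in both treatments. The least read genes, such as MVB12B and CHMP4A, had the widest intervals at this depth.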
